A study of Mus musculus with 4 samples.

Results

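Inhibitory receptors and the transcription factor Tox were followed in T cells of the brain borders of young and aged mice. The 9 genes were chosen by name, not by their values: Pdcd1, Lag3, Tigit, Ctla4, Havcr2, Cd160, Btla, Cd200 and Tox, of 31053 genes in the deposited matrices. The study sorted T cells, CD4 and CD8, out of meninges and choroid plexus and made 1 droplet library from each tissue at each age with a kit that tags the 5' end of the transcript. All mice were female C57BL/6. Mice of the young group were 10 weeks old and those of the aged group 18 months. Each library was pooled from 5 mice, so that mouse and condition cannot be told apart and no library had a replicate. All comparisons are therefore between single libraries. No p-value was computed, and the 95% intervals given throughout cover counting error only, not the variation between mice.

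Inhibitory receptors sit on the surface of T cells and dampen signals from the T-cell receptor and from co-stimulatory receptors when they meet their ligands on other cells. Most of them appear after activation and fade again, and several of them stay on together in T cells that meet antigen for a long time, in chronic infection and in tumours. Regulatory T cells, follicular helper T cells and resident memory T cells of healthy tissue also carry some of them, so that expression of one receptor alone does not name a state. Tox is the nuclear factor best known for maintaining the program of exhausted CD8 T cells.

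The T cells were those with a UMI of Cd3d, Cd3e or Cd3g. Any 2 libraries shared 0 to 3 cell barcodes. The T cells numbered 1007 in young meninges, 605 in young choroid plexus, 1408 in aged meninges and 1094 in aged choroid plexus. CD4 T cells had a UMI of Cd4 and none of Cd8a or Cd8b1, CD8 T cells the reverse, and cells with no UMI of any of these 3 genes are called neither. The CD4 class held 254, 160, 362 and 230 cells in that order of libraries, the CD8 class 254, 160, 281 and 473 cells, and the class of neither 481, 269, 735 and 358 cells. The class of neither can hold CD4 and CD8 T cells whose marker was not captured, since a transcript as sparse as that of Cd4 is often missed. T cells with both markers, 16 to 33 per library, were left out of all values that follow. The libraries held 2295950 to 4262917 UMIs in all, and a T cell held a median of 3198 UMIs in young meninges, 2978 in young choroid plexus, 2312.5 in aged meninges and 2838.5 in aged choroid plexus. Shares of cells are therefore given after 1000 UMIs were drawn from each cell, and levels as CPM, the UMIs of a gene summed over the cells of a class and scaled to all UMIs of those cells. The levels cannot tell more cells with a transcript from more transcript per cell, which is why both are given.

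Naive-like T cells, those with a UMI of Ccr7 and none of 6 memory, effector or regulatory genes, served as the reference for free RNA, because a resting naive T cell should hold little of Pdcd1, Lag3 or Tigit. They made up 41.5% of T cells in young meninges and 41.6% in young choroid plexus, but 3.48% in aged meninges and 2.54% in aged choroid plexus. In young naive-like cells, with a median of 3071.5 UMIs in meninges and 2845 in choroid plexus, Pdcd1 was seen in 1.71% and 0.408% of cells, Lag3 in 0.244% and 0.408%, and Tigit in 0.732% and 0% of cells before thinning. A count of 0 in 245 cells allows a share of up to 1.22%. Ctla4 was seen in 4.15% and 1.63% of these cells. After thinning its share of 2.44% in naive-like cells of young meninges was that of all T cells there, 2.45%, and the Lag3 share of 0.244% stood beside 0.306%, so that these thinned shares lay at the level of the reference. The Ctla4 level did not, with 17.2 CPM (10.8 to 26.1) in naive-like cells and 39.7 (33.3 to 46.9) in all T cells of young meninges. The aged naive-like groups were too small for such a reference, with 48 and 27 cells. Their values were not all low. In aged meninges they held Lag3 at 51.6 CPM (20.7 to 106), from 7 UMIs, beside 52.9 in all T cells there. Pdcd1, Tigit and Ctla4 stood at 44.2, 36.9 and 88.4 CPM in them, beside 141, 146 and 146. Those of aged choroid plexus had 0 UMIs of Lag3, 2 of Pdcd1, 3 of Tigit and 1 of Ctla4. The part of free RNA in the aged levels was not tested. Cells with a UMI of a B-cell marker, nearly all of it Ighm, made up 41.9% to 51.2% of the classes in the young and 14.6% to 36.5% in the aged libraries.

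Levels of the 9 genes differed by class, tissue and age, and fell into 3 patterns. Pdcd1, Lag3, Tigit and Ctla4 were higher in the aged libraries of both tissues in every class, Pdcd1 in choroid plexus CD8 T cells by less than the rule of size given below asks and, without cells that held a B-cell marker, by a log2 ratio of only 0.13. Tox differed less, and Cd160, Btla and Cd200 differed little between the ages or followed the class of the cell instead. Havcr2 was close to undetected.

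**Figure D1:**
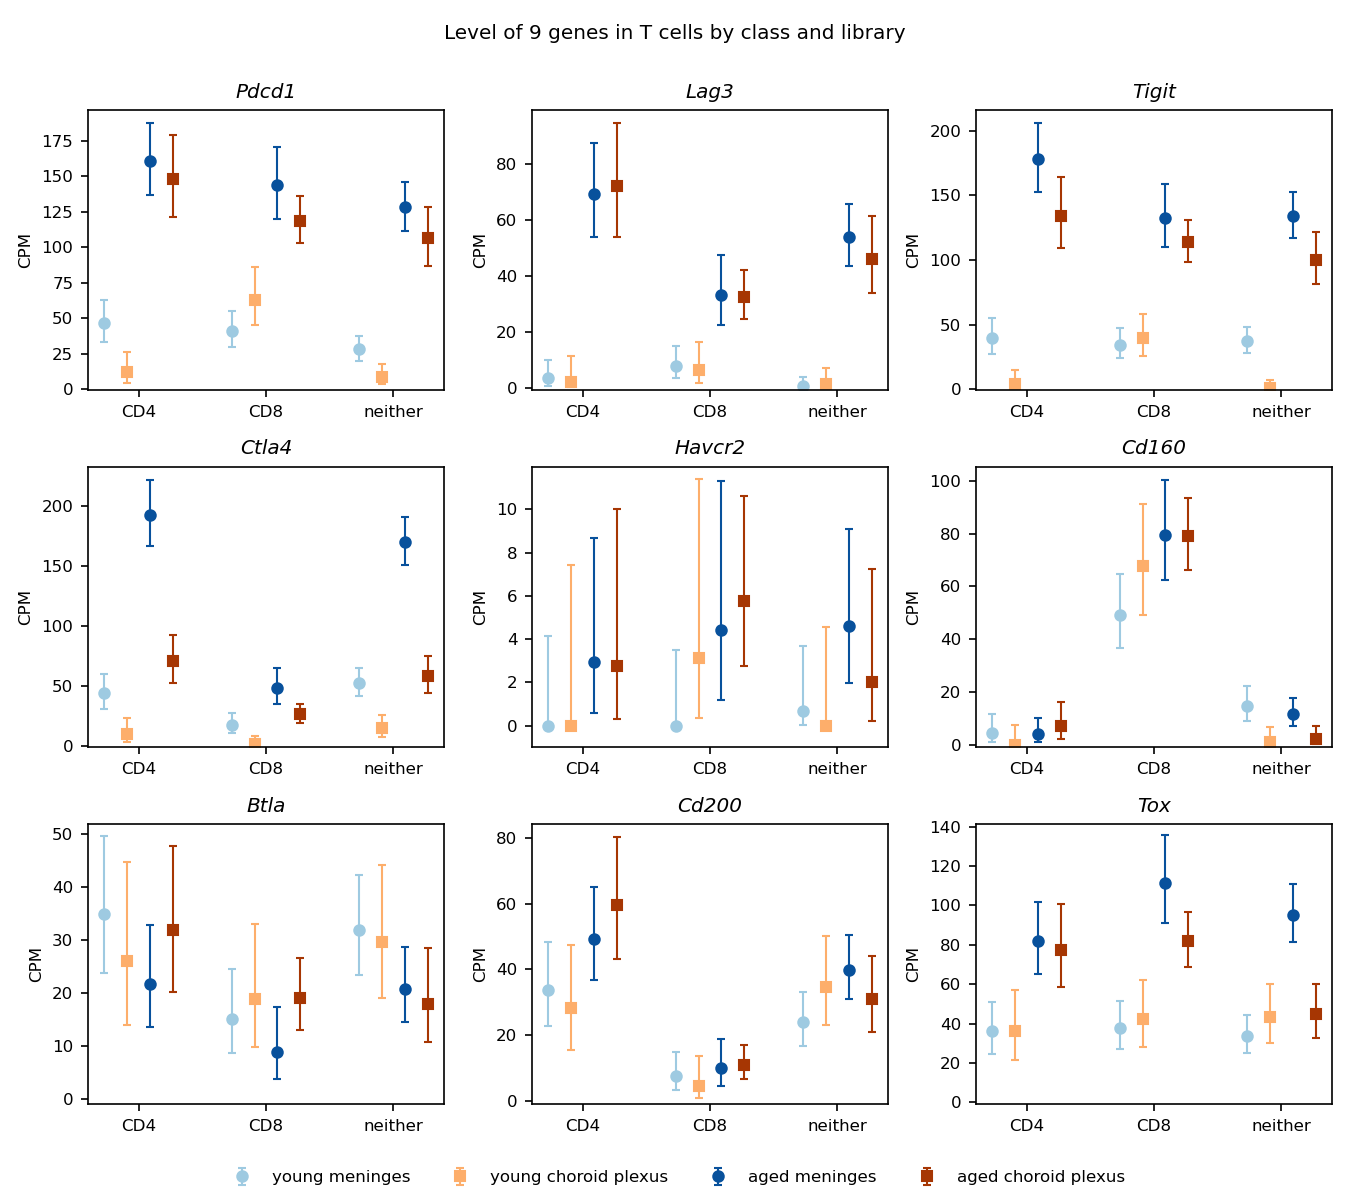
Level of each of the 9 genes in CPM (linear axis from 0, one panel per gene with its own scale) in CD4, CD8 and neither T cells of the 4 libraries, with 95% exact Poisson intervals as bars. Pdcd1, Lag3 and Tigit stand higher in the aged than in the young libraries in every class, for example Lag3 at 69.1 against 3.39 CPM in meningeal CD4 T cells, Cd160 stands out in CD8 T cells, and Havcr2 stays at or below 5.76 CPM.

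Pdcd1 encodes PD-1, the receptor for PD-L1 and PD-L2. The gene lies on chr1:94038305-94052553, minus strand (GRCm38). In CD4 T cells its level was 46.3 CPM (33.2 to 62.8) in young meninges, 12.1 (4.43 to 26.3) in young choroid plexus, 161 (137 to 188) in aged meninges and 148 (121 to 179) in aged choroid plexus. Both aged levels lay above both young ones without overlap of the intervals, and the lowest level of all was that of the young choroid plexus, which rested on 6 UMIs. The aged level was 3.48 times the young one in meninges (2.46 to 5.03) and 12.3 times in choroid plexus (5.46 to 34.2). The share of CD4 T cells with a UMI of Pdcd1 after thinning was 3.56%, 1.26%, 10.4% and 14.0% in the same order.

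The order of the young libraries was the other way round in CD8 T cells. Pdcd1 stood at 40.7 CPM (29.4 to 54.8) in young meninges, 63.0 (45.0 to 85.8) in young choroid plexus, 144 (120 to 171) in aged meninges and 119 (103 to 136) in aged choroid plexus. The aged intervals again lay above the young ones, but the ratio in choroid plexus, 1.88 (1.34 to 2.71), was the smallest of all classes and missed the rule of size used here. With each cell thinned to 1000 UMIs before summing, Pdcd1 passed it in all 6 comparisons, with log2 ratios of at least 1.35, as in no other setting. In choroid plexus CD8 T cells 7.95% of all genes were higher in that setting. Without cells that held a gamma-delta constant gene the choroid plexus levels were 61.8 CPM (43.5 to 85.2) in young and 88.6 (71.8 to 108) in aged CD8 T cells, with overlapping intervals. A gene counted as higher or lower by that rule when it had at least 20 UMIs in both groups together and a ratio of at least 2 after 10 CPM was added to both levels. In young meningeal CD8 T cells 55.8% of the Pdcd1 UMIs came from the top 1% of the cells, and 1 cell held 16 of the 43 UMIs. The share of CD8 T cells with a UMI after thinning was 1.57%, 3.18%, 12.8% and 9.87%. Pdcd1 in cells of neither class was at 27.9, 8.68, 128 and 106 CPM, 4.6 times higher with age in meninges and 12.2 times in choroid plexus.

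Tigit encodes a receptor that competes with the co-stimulatory CD226 for the ligand CD155. It lies on chr16:43648867-43664146, minus strand. In CD4 T cells it measured 39.5 CPM (27.5 to 54.9) in young meninges, 4.03 (0.488 to 14.5) in young choroid plexus, 178 (153 to 206) in aged meninges and 134 (109 to 164) in aged choroid plexus. The aged meninges held the highest level and the young choroid plexus, with 2 UMIs, the lowest, and neither young interval reached an aged one. The ratio of aged to young was 4.50 in meninges (3.12 to 6.66) and 33.4 in choroid plexus, where the interval was wide (8.99 to 279). The levels in CD8 T cells were 34.1, 39.4, 133 and 114 CPM, with ratios of 3.89 (2.66 to 5.82) and 2.90 (1.90 to 4.58). Tigit was seen in 15.3% of aged meningeal and 10.9% of aged choroid plexus CD8 T cells after thinning, against 2.36% and 3.82% of the young ones. In cells of neither class it measured 37.2, 1.24, 134 and 100 CPM.

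Tigit was also the gene whose level most resembled that of Pdcd1. Across the 12 sums of 3 classes in 4 libraries Pearson's r of their log2 levels (10 CPM added) was 0.982, the highest for Pdcd1 among 3508 genes that reached 50 CPM in at least 1 sum. The 12 sums share libraries, ages and depth, so that this describes the pattern and not 12 independent points. Prkcz (0.951) and H2-Q6 (0.948) came next for Pdcd1, and Apobec3 (0.959) and Il2rb (0.951) for Tigit. Il2rb, a subunit of the receptors for interleukins 2 and 15, ranged from 96.6 to 304 CPM over the sums.

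Lag3 encodes a receptor for MHC class II and other ligands that resembles CD4 in structure. It lies on chr6:124904361-124911705, minus strand. It was almost absent from the young libraries, with 3 UMIs in CD4 T cells of the meninges and 1 in those of the choroid plexus (3.39 and 2.01 CPM). In the aged libraries it was at 69.1 CPM (53.9 to 87.3) in meningeal and 72.0 (53.8 to 94.5) in choroid plexus CD4 T cells. The aged intervals did not reach those of the young, and the ratios of 20.4 (6.71 to 101.) and 35.8 (6.15 to 1440) rest on those 3 and 1 young UMIs. Lag3 in CD8 T cells measured 7.57, 6.30, 33.1 and 32.3 CPM, with ratios of 4.38 (1.96 to 11.1) in meninges and 5.12 (1.89 to 19.4) in choroid plexus. In cells of neither class it was at 0.664, 1.24, 53.7 and 46.1 CPM, from 1 UMI in each young library. Aged CD4 T cells held more Lag3 than aged CD8 T cells of the same library, 2.09 times in meninges (1.34 to 3.31) and 2.23 times in choroid plexus (1.5 to 3.32). The share of CD4 T cells with a Lag3 UMI after thinning was 7.30% in aged meninges and 6.11% in aged choroid plexus. Serpinb6a (r of 0.984), Il18r1 (0.968) and Plscr1 (0.959) had the patterns most like that of Lag3 over the same 12 sums.

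Ctla4 encodes the receptor that competes with CD28 for CD80 and CD86, and regulatory T cells carry it constitutively. It lies on chr1:60887000-60915832, plus strand. In CD4 T cells it stood at 44.0 CPM (31.3 to 60.2) in young meninges, 10.1 (3.27 to 23.5) in young choroid plexus, 193 (167 to 222) in aged meninges and 70.6 (52.6 to 92.9) in aged choroid plexus. The aged meninges lay above the 3 other libraries, and the interval of the aged choroid plexus overlapped that of the young meninges. Its ratio of aged to young was 4.38 in meninges (3.09 to 6.34) and 7.02 in choroid plexus (2.82 to 22.5). CD8 T cells held less, at 18, 1.58, 48.6 and 26.5 CPM, and the CD4 level was 3.96 times the CD8 level in aged meninges (2.84 to 5.63) and 2.67 times in aged choroid plexus (1.75 to 4.06). In CD8 T cells the age ratio in meninges was 2.70 (1.55 to 4.90). That in choroid plexus, 16.8 (2.87 to 679), rests on 1 young UMI, and 14 of the 46 aged UMIs came from 1 cell. Cells of neither class resembled CD4 T cells in this gene, at 52.4, 14.9, 170 and 58.1 CPM.

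Ctla4 was the gene with the clearest difference between the tissues in the aged mice. Its level in aged choroid plexus was 2.73 times lower than in aged meninges in CD4 T cells (1.99 to 3.79), 2.93 times lower in cells of neither class (2.20 to 3.95), and 1.83 times lower in CD8 T cells (1.19 to 2.84), which missed the rule of size. Of 7 members counted in aged CD4 T cells and of 8 counted in aged cells of neither class, Ctla4 alone passed the rule between the tissues, where 1.86% and 1.33% of all genes counted did. No member passed it in aged CD8 T cells, where 1.25% of all genes did. Ndfip1 (r of 0.973), P2ry10 (0.961) and Bcl2a1d (0.953) followed Ctla4 most closely over the 12 sums.

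In the young mice the choroid plexus held less of these receptors than the meninges in CD4 T cells and in cells of neither class. In young CD4 T cells Pdcd1 was 3.83 times lower (1.62 to 11), Tigit 9.81 times lower (2.52 to 84.2) and Ctla4 4.37 times lower (1.72 to 14.2) in choroid plexus, 3 of 6 members counted, beside 3.21% of all genes that differed either way. In young cells of neither class Pdcd1, Tigit, Ctla4 and Cd160 were lower in choroid plexus, 4 of 7 counted beside 1.88% of all genes. The Tigit ratio there and the Cd160 ratio rest on 1 UMI each in choroid plexus. In young CD8 T cells Ctla4 alone passed, 1 of 6 counted beside 2.31% of all genes, also from 1 UMI. The large ratios of aged to young in choroid plexus CD4 T cells were taken over these low young levels of few UMIs.

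Of the 4 receptor genes that passed the rule with age in CD4, CD8 and neither T cells of at least 1 tissue, Lag3 has no entry in the promoter table used here, and Pdcd1, Tigit and Ctla4 are shown by the 250 bases before their start site. The stretches, by the start sites of RefSeq on GRCm38.p6, are chr1:94052554-94052803, minus strand, for Pdcd1, chr16:43664185-43664434, minus strand, for Tigit, and chr1:60908775-60909024, plus strand, for Ctla4, all read 5′ to 3′ along the gene. Capitals mark the motif GGAAA, the core of sites for NFAT and NF-κB factors, searched on both strands. Here it lies on the strand opposite to the gene and reads as TTTCC.
Pdcd1: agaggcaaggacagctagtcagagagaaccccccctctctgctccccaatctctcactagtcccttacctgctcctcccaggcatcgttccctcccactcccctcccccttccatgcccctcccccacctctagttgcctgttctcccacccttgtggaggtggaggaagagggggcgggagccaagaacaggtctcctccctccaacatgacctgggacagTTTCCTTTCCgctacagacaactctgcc
Tigit: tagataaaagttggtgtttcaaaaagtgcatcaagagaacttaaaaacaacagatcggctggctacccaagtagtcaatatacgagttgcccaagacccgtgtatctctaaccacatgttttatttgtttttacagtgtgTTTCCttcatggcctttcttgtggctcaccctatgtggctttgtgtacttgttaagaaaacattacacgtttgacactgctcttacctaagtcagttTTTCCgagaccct
Ctla4: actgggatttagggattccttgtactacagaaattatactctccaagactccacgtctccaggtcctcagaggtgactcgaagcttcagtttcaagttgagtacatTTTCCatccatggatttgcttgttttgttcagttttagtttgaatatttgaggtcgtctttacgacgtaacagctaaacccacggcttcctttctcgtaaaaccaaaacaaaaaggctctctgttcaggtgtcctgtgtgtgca
The motif was found in 4 of the 7 members with an entry, in Cd160 besides these, and in 55.6% of all 32851 promoters of the same length, so that these letters are common. The pair in Pdcd1 stands side by side, from 28 to 19 bases before the start. TGANTCA, a looser form of the site of AP-1 with any base at N, was found in 1 of 7 members, against 6.75% of all promoters. That member was Havcr2, where it reads TGATTCA, and neither figure counts AP-1 sites alone. AAAGGTCA, a site of nuclear receptors of the NR4A family, was found in none, against 1.34%. A match is a stretch of letters and not a bound site. The Pdcd1 stretch held 60.4% G or C, above the median of 52.4% for all promoters, and those of Tigit and Ctla4 held 40% and 42.4%.

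Havcr2 encodes TIM-3, a receptor of terminally exhausted and of type 1 effector T cells, on chr11:46454935-46481255, plus strand. It had 0, 0, 3 and 2 UMIs in CD4 T cells, 0, 2, 4 and 10 in CD8 T cells and 1, 0, 8 and 2 in cells of neither class. Its highest level was 5.76 CPM (2.76 to 10.6), in aged choroid plexus CD8 T cells. It was not counted by the rule of size, because no comparison reached 20 UMIs. Over the 3 classes together it stood at 0.290 CPM (0.00734 to 1.62) in young and 4.11 (2.30 to 6.78) in aged meninges, from 1 and 15 UMIs. In choroid plexus it was 1.03 (0.125 to 3.73) and 4.05 (2.22 to 6.80), from 2 and 14 UMIs. The intervals overlapped in choroid plexus but not in meninges. Of 10 aged meningeal and 13 aged choroid plexus T cells with a Havcr2 UMI, 6 (26.2% to 87.8%) and 8 (31.6% to 86.1%) also had one of Pdcd1, before thinning, against 20.1% and 20.9% of the other cells.

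Cd160 encodes a receptor of CD8 T cells and natural killer cells that shares the ligand HVEM with BTLA. It lies on chr3:96798763-96829351, minus strand. In CD8 T cells it measured 49.2 CPM (36.7 to 64.5) in young meninges, 67.8 (49.0 to 91.3) in young choroid plexus, 79.5 (62.2 to 100) in aged meninges and 78.9 (66.3 to 93.3) in aged choroid plexus. The 4 intervals overlapped apart from those of young meninges and aged choroid plexus, and the ratio of aged to young was 1.62 in meninges (1.12 to 2.36) and 1.16 in choroid plexus (0.821 to 1.68). The share of CD8 T cells with a UMI after thinning was 3.15% (1.37 to 6.11), 6.37%, 9.12% (5.99 to 13.2) and 7.73% in the same order. Cd160 therefore followed the class, and its level differed with age by less than the rule of size asks. With each cell thinned before summing it passed the rule in 1 of 6 comparisons, beside 5.03% to 8.77% of all genes. Its CD8 level was 10.9 times the CD4 level in young meninges, 20.1 times in aged meninges (7.53 to 75.9) and 11.4 times in aged choroid plexus (4.77 to 35.7), and CD4 T cells of the young choroid plexus held none. It had no UMI in the naive-like T cells of any library. Cd8a (r of 0.953) and Cd8b1 (0.947), which define the class, resembled it most, followed by Ctsw (0.945), a protease gene of cytotoxic lymphocytes.

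Btla encodes a receptor that naive T cells and B cells carry, on chr16:45224315-45257670, plus strand. Its levels in CD4 T cells were 35.0, 26.2, 21.7 and 31.9 CPM, in CD8 T cells 15.1, 18.9, 8.84 and 19.0, and in cells of neither class 31.9, 29.7, 20.8 and 18, from 8 to 48 UMIs. All 6 intervals of the ratio of aged to young included 1. The log2 ratios were −0.50, −0.42 and −0.44 in meningeal CD4, CD8 and neither T cells, and 0.21, 0.01 and −0.50 in those of the choroid plexus. No gene of the 9 was lower with age by the rule of size, Btla included. Young naive-like T cells held as much Btla as the other cells, 32.9 CPM in meninges and 29.3 in choroid plexus. Faah (r of 0.883), Txndc15 and Hibadh were nearest in pattern.

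Cd200 encodes a surface ligand, not a receptor, that restrains myeloid cells through CD200R and is known from follicular helper T cells. It lies on chr16:45382135-45409053, minus strand. In CD4 T cells it measured 33.9, 28.2, 49.4 and 59.6 CPM and in CD8 T cells 7.57, 4.73, 9.94 and 10.9 CPM. It was higher in CD4 than in CD8 T cells of every library, by 4.47 (2 to 11.3), 5.96 (1.66 to 32.3), 4.97 (2.42 to 11.5) and 5.44 times (3.1 to 9.89). With age it was 1.46 times higher in meningeal CD4 T cells (0.91 to 2.38) and 2.11 times in those of the choroid plexus (1.13 to 4.18), which missed the rule with a log2 ratio of 0.87 once 10 CPM was added. Cells of neither class stood at 23.9, 34.7, 39.8 and 31.1 CPM. Besides Son (r of 0.947), Cd40lg (0.938) and Izumo1r (0.937), 2 genes of activated or helper CD4 T cells, were nearest in pattern.

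Tox lies on chr4:6686353-6991557, minus strand. In CD8 T cells it stood at 37.8 CPM (27.0 to 51.5) in young meninges, 42.6 (28.0 to 61.9) in young choroid plexus, 112 (90.9 to 136) in aged meninges and 81.8 (68.9 to 96.4) in aged choroid plexus. Both aged intervals lay above both young ones, and the ratio was 2.95 in meninges (2.03 to 4.37), past the rule, and 1.92 in choroid plexus (1.27 to 3.02), short of it. In CD4 T cells Tox was at 36.1, 36.2, 82.0 and 77.6 CPM. The CD4 log2 ratio in meninges, 0.996, was just under the threshold, and that in choroid plexus was 0.92. In cells of neither class Tox was at 33.9, 43.4, 95.2 and 45.1 CPM, so that aged choroid plexus did not stand apart from young (ratio 1.04, 0.654 to 1.67) while aged meninges did (2.81, 2.04 to 3.93). Unlike Pdcd1, Lag3 and Tigit, Tox was present in young naive-like cells, at 33.6 CPM in meninges and 33.5 in choroid plexus, close to its level in all young T cells of 35.7 and 41.3 CPM. Cxcr3 (r of 0.921), Serpina3g (0.91) and H2-Q7 (0.908) resembled it most.

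**Figure D2:**
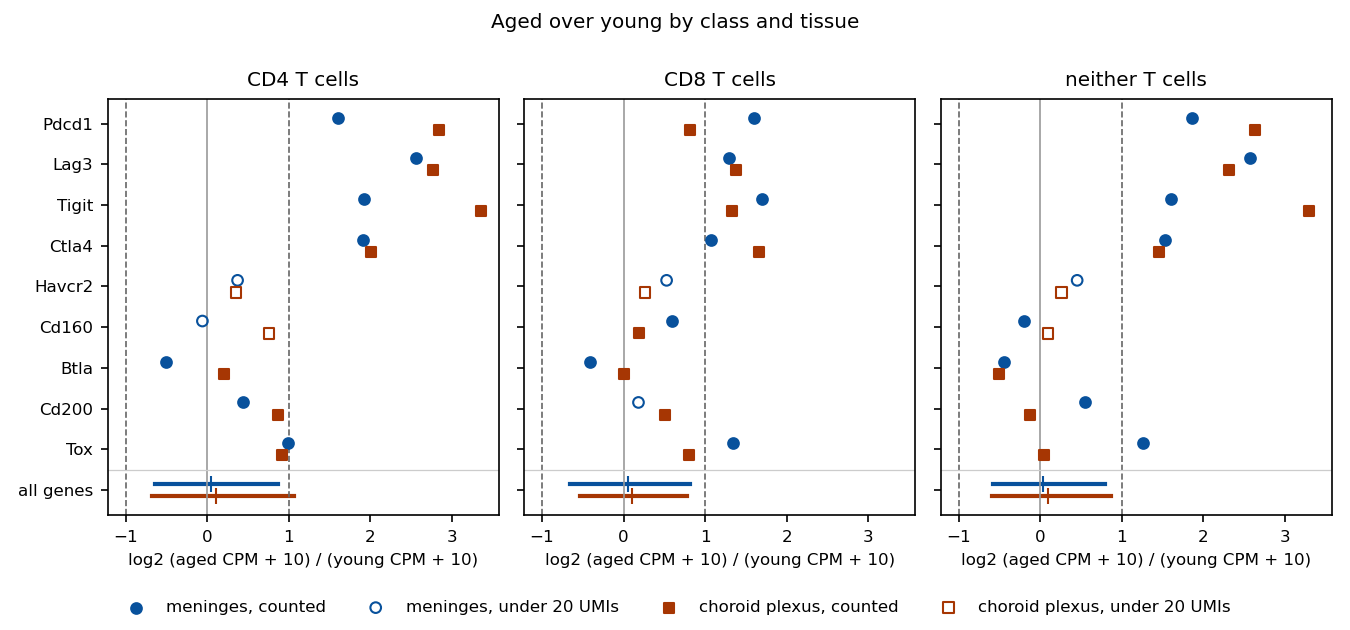
Log2 ratio of aged to young with 10 CPM added (x axis) for each gene (rows) in CD4, CD8 and neither T cells of meninges and choroid plexus. Open symbols rest on fewer than 20 UMIs, and the bottom row spans the 5th to 95th percentile of all genes counted with a tick at the median. Lag3 and Tigit lie past 1 in all 6 comparisons, and Btla lies around 0.

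Counted together, 4 of 7 members that had enough UMIs were higher with age in meningeal CD4 T cells, where 3.51% of all genes counted were, and 4 of 7 in choroid plexus CD4 T cells, where 5.93% were. Both times these were Pdcd1, Lag3, Tigit and Ctla4. Of the members counted in CD8 T cells 5 of 7 were higher in meninges, with Tox as the fifth, beside 2.68% of all genes, and 3 of 8 in choroid plexus, namely Lag3, Tigit and Ctla4, beside 2.21%. In cells of neither class 5 of 8 were higher in meninges beside 3% of all genes, and 4 of 7 in choroid plexus beside 3.77%. None was lower in any of the 6 comparisons, beside 1.57%, 1.71%, 1.43%, 0.964%, 1.23% and 1.52% of all genes. The median log2 ratio of the members counted was 1.60, 2.01, 1.30, 0.81, 1.40 and 1.45 in the same order, and that of all genes 0.05, 0.11, 0.05, 0.11, 0.04 and 0.10. The members that failed the count were mostly Havcr2, and Cd160 or Cd200 in the class where each is sparse. The 3 comparisons within a tissue use separate cells of the same libraries and are not independent of each other.

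The young and aged libraries differed in their make-up, and the differences with age were measured again without the cells concerned. Without naive-like T cells Pdcd1 in CD4 T cells measured 77.9 and 26 CPM in young and 163 and 152 CPM in aged meninges and choroid plexus, so that the gap narrowed in meninges and Pdcd1 no longer passed the rule there. Tigit in the same cells stood at 69.7, 8.68, 182 and 138 CPM. Without them 4 of 7 members were higher in meningeal CD4 T cells (Lag3, Tigit, Ctla4 and Tox, beside 2.84% of all genes), 5 of 7 in choroid plexus CD4 T cells (with Cd200, beside 5.89%), 5 of 7 and 3 of 8 in CD8 T cells (beside 2.73% and 2.22%), and 3 of 8 and 4 of 7 in cells of neither class (beside 2.16% and 3.27%). In the meningeal cells of neither class Tigit and Ctla4 were the ones that no longer passed. In CD8 T cells, of which naive-like cells were 13.0% and 15.0% in young meninges and choroid plexus against 49.2% and 55.0% of CD4 T cells, leaving them out changed no call.

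Regulatory T cells, which carry Ctla4 constitutively, were more frequent in the aged libraries. A UMI of Foxp3, their defining factor, was found in 2.76% and 2.5% of young and in 12.2% and 8.70% of aged CD4 T cells of meninges and choroid plexus. In aged meninges Ctla4 measured 339 CPM (262 to 431) in the 44 CD4 T cells with Foxp3 and 158 (132 to 187) in the 318 without, and Tigit 308 (235 to 397) and 147 (122 to 175). The intervals did not overlap in either gene. In aged choroid plexus the 20 cells with Foxp3 held 118 CPM of Ctla4 (60.7 to 205) and 108 of Tigit (53.8 to 193), against 62.9 (44.7 to 86.0) and 139 (111 to 171) in the others, and these intervals overlapped. Pdcd1 stood in cells with and without Foxp3 at 195 and 153 CPM in aged meninges and 157 and 147 CPM in aged choroid plexus, with overlapping intervals. Without the Foxp3 cells Pdcd1, Lag3, Tigit and Ctla4 still passed in CD4 T cells of both tissues, joined by Tox in meninges. That makes 5 of 7 and 4 of 7, beside 3.13% and 5.56% of all genes. Foxp3 was also seen in 3.20% and 3.59% of aged CD8 and in 11.2% and 7.82% of aged neither T cells. Over all 6 comparisons Ctla4 passed in 5 without Foxp3 cells, so that 1 call outside CD4 T cells was lost. Its lowest log2 ratio was then 0.64, against 1.07 with them.

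The CD8 class also held cells with transcripts of the gamma-delta T-cell receptor. A UMI of a constant gene of the gamma or delta chain was found in 3.94% and 5% of young but 18.9% and 32.8% of aged CD8 T cells in meninges and choroid plexus. Pdcd1 was higher in these cells, at 232 CPM (167 to 313) against 122 (97.5 to 150) in the rest of the aged meningeal CD8 T cells and 170 (140 to 205) against 88.6 (71.8 to 108) in those of the choroid plexus. Lag3 was likewise higher in meninges, 71.7 (38.2 to 123) against 23.5 (13.7 to 37.6), whereas the intervals overlapped in choroid plexus, 46.8 (31.6 to 66.8) against 23.7 (15.5 to 34.8). Tox stood at 182 (125 to 256) against 94.0 (73.0 to 119) in meninges and at 99.9 against 71.2 with overlap in choroid plexus. Of aged cells of neither class only 3.27% and 4.19% held such a UMI, and whether any of these cells carried a gamma-delta receptor was not tested. Without the cells with a gamma-delta constant gene 4 of 7 members were still higher with age in meningeal CD8 T cells (Pdcd1, Lag3, Tigit and Tox, beside 3.18% of all genes) and 3 of 7 in those of the choroid plexus (Lag3, Tigit and Ctla4, beside 1.93%). Ctla4 no longer passed in meninges.

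**Figure D3:**
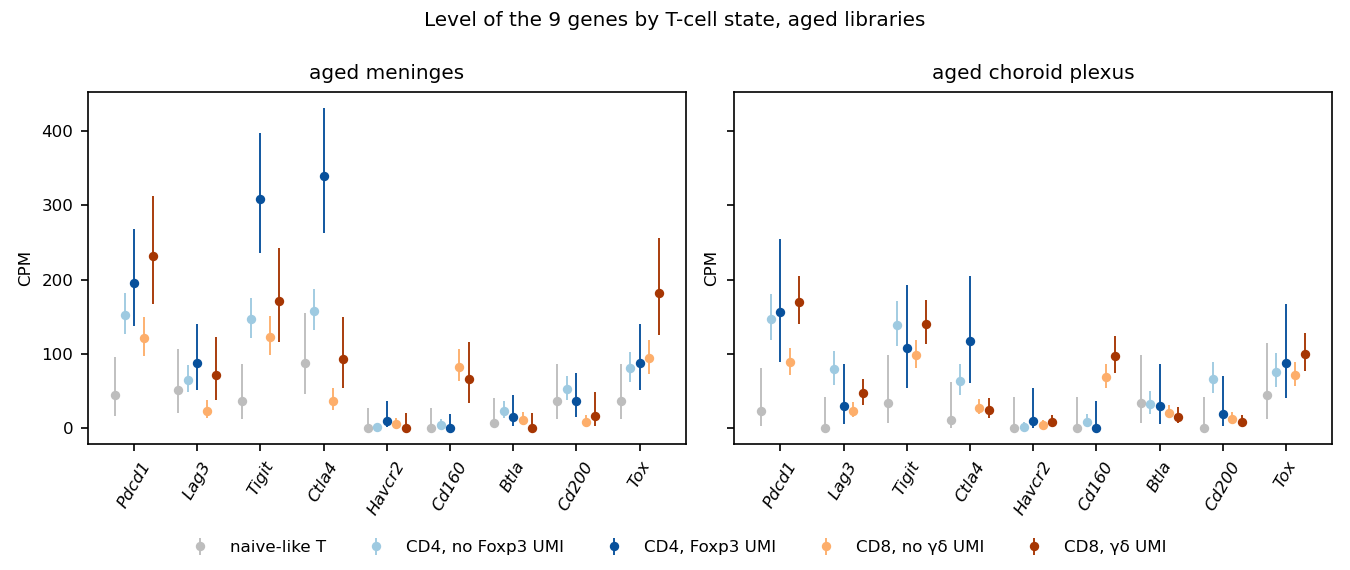
Level in CPM (linear axis) of the 9 genes in groups of T cells of the 2 aged libraries, with 95% exact Poisson intervals: naive-like T cells, CD4 T cells with and without a Foxp3 UMI, and CD8 T cells with and without a UMI of a gamma-delta constant gene. Ctla4 and Tigit stand highest in meningeal CD4 T cells with Foxp3 (339 and 308 CPM), and Pdcd1 is higher in CD8 T cells with a gamma-delta constant gene.

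Signs of other cells were looked at beside these levels. A UMI of an MHC class II gene (H2-Aa, H2-Ab1 or H2-Eb1) was found in 0.202% and 0.170% of young and 2.83% and 1.79% of aged T cells of meninges and choroid plexus, and without these cells the counts and names of members higher with age were those given above in all 6 comparisons. Leaving out every T cell with a UMI of a B-cell marker removed all 3 calls in choroid plexus CD8 T cells, where Tigit then had a log2 ratio of 0.58, Lag3 of 0.96 and Ctla4 of 0.79 and that of Pdcd1 went from 0.82 to 0.13, and left 2 of the 4 in cells of neither class of the choroid plexus. In that setting 2.97% to 6.58% of all genes counted were higher over the 6 comparisons. The cells left out were a larger share of the young than of the aged classes, as given above. Of the other B-cell markers, Cd79a and Ms4a1 were seen in at most 1.11% of the T cells with and 0.522% of those without a Ctla4 UMI. Cd79b was seen in 8.45% of the cells with and 2.94% of those without Ctla4 in young meninges, in 0% and 2.09% in young choroid plexus, in 1.7% and 0.554% in aged meninges and in 5.56% and 1.34% in aged choroid plexus. The part of B cells and of free Ighm RNA in these results was not tested.

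Cells with several of the 9 genes were more frequent in the aged libraries. Such shares rise when the share of each gene rises alone, so that they do not measure joint expression. The shares that would follow from the single genes were not computed. After thinning, 1.94% of T cells in young meninges and 0.686% in young choroid plexus had UMIs of at least 2 of the 9 genes, against 14.0% in aged meninges and 9.52% in aged choroid plexus. Both aged shares lay above both young ones. Without thinning the shares were 8.90%, 7.30%, 32.4% and 27.8%, higher in all 4 libraries and in the same order of the ages. Among T cells that were not naive-like the thinned shares were 3.15%, 0.294%, 14.3% and 9.77%.

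Within the classes the aged shares were also above the young ones. At least 3 members were seen in 3.93% of CD4, 2.92% of CD8 and 3.8% of neither T cells of aged meninges, and in 6.11%, 1.07% and 2.32% of those of the aged choroid plexus. In the young libraries these shares were 0.791%, 0.394% and 0% in meninges and 0% in each class of the choroid plexus. The most members in 1 cell after thinning was 5, and no member at all was found in 54.2% to 60.6% of the cells of the classes in aged meninges and 66.3% to 74.5% of those in aged choroid plexus. In aged CD8 T cells at least 2 members were seen in 24.5% of the cells with a gamma-delta constant gene against 11.3% of the others in meninges, and in 13.9% against 8.25% in choroid plexus.

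**Figure D4:**
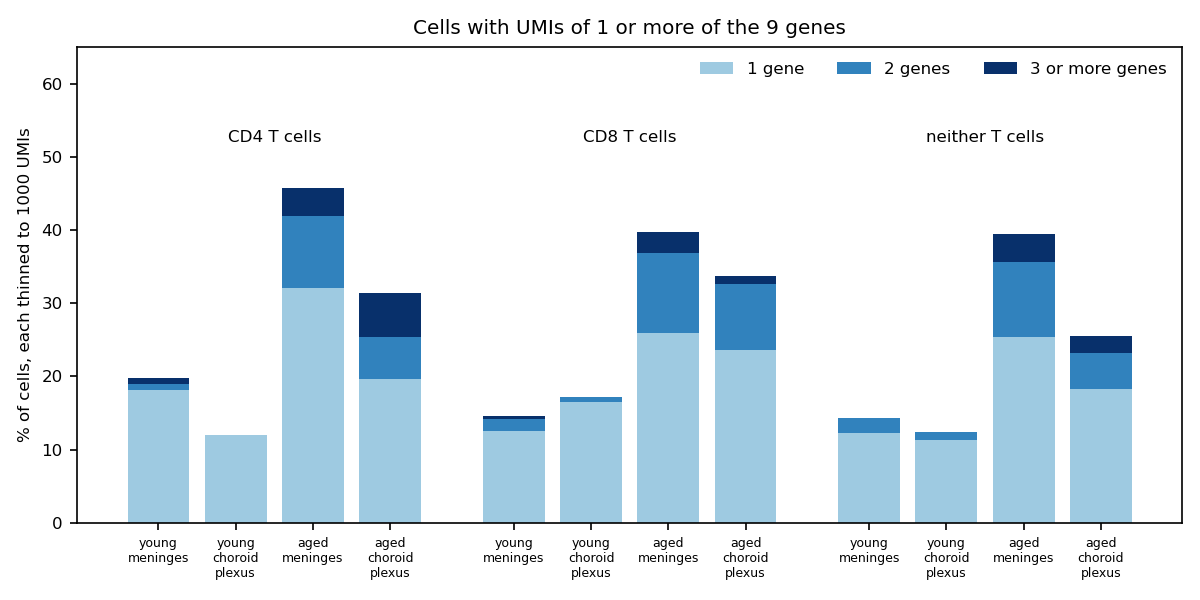
Share of cells (y axis, percent, from 0) with UMIs of 1, 2 or at least 3 of the 9 genes after thinning to 1000 UMIs, stacked, by class and library. The aged bars are taller in every class, and at least 3 genes are seen in 3.93% of aged meningeal CD4 T cells against 0.791% of young ones.

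Pdcd1 and Tigit were often found in the same cell. After thinning, 27.1% (20 to 35.1) of the aged meningeal T cells with a Pdcd1 UMI also had one of Tigit, against 12.9% (11 to 14.9) of those without. In aged choroid plexus the shares were 29.1% (20.8 to 38.5) and 8.39% (6.69 to 10.4). The intervals did not overlap in either tissue. The cells in which Pdcd1 was seen after thinning had a median full depth of 2023 UMIs against 2354 in meninges and 2580 against 2858 in choroid plexus. Those in which it was seen without thinning had 2279 against 2290 and 2958 against 2752. In young meninges 7 of 21 cells with Pdcd1 had Tigit, 33.3% (14.6 to 57.0) against 1.98%, and in young choroid plexus 0 of 11, so that the young cells were too few to compare the closeness of the pair between the ages. Within aged CD8 T cells Tigit was seen in 34.8% of choroid plexus cells with and 8.33% without Pdcd1 (16 of 46 and 35 of 420 cells), but in 7 of 35 and 35 of 239 meningeal ones. Within aged CD4 T cells the shares were 29.7% and 16.0% in meninges and 18.8% and 10.2% in choroid plexus, with overlapping intervals.

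Cells with Lag3 also held Pdcd1, Tigit and Tox more often than other cells. After thinning, Pdcd1 was seen in 26.6% (16.3 to 39.1) of the 64 aged meningeal T cells with Lag3 against 9.95% without, and in 27.9% (15.3 to 43.7) of the 43 in aged choroid plexus against 9.83%. Tigit was seen in 28.1% and 37.2% of the cells with Lag3 against 13.7% and 9.43% of those without. Tox was seen in 20.3% (11.3 to 32.2) against 8.62% in meninges and 23.3% (11.8 to 38.6) against 5.52% in choroid plexus. All 6 of these shares were higher in the cells with Lag3, with intervals that did not overlap. Without cells that held a B-cell marker the Pdcd1 share in choroid plexus was 11.1% of 27 cells with Lag3 against 8.41% of the others. With those cells kept, in aged meningeal CD8 T cells 6 of 12 cells with Lag3 had Pdcd1 against 11.1% of the others, while in choroid plexus it was 2 of 17 against 9.80%.

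Ctla4 was found with Cd200 and hardly with Cd160. In aged meninges it was found in 14 of 41 T cells with Cd200, 34.1% (20.1 to 50.6), against 11.8% of those without, and in aged choroid plexus in 4 of 23, 17.4% (4.95 to 38.8), against 3.64%. These shares were taken over all classes together, and both genes were higher in CD4 than in CD8 T cells. Of T cells with Cd160 none had Ctla4 after thinning, 0 of 36 in aged meninges and 0 of 39 in aged choroid plexus, against 12.8% and 4.10% of the others. Before thinning 2.70% of 74 and 5.45% of 110 cells with Cd160 had Ctla4, against 22.4% and 8.83%, and the intervals overlapped in choroid plexus. Cd160 was mainly found in CD8 and Ctla4 in CD4 T cells. Within CD8 T cells 1 of 56 meningeal and 6 of 103 choroid plexus cells with Cd160 had Ctla4 before thinning, 1.79% (0.0452 to 9.55) and 5.83% (2.17 to 12.2), against 12.9% and 4.05% of the others, so that the scarcity was not seen in CD8 T cells of the choroid plexus. Tigit was seen in 24.6% (18.2 to 31.8) and 24.4% (12.4 to 40.3) of aged T cells with Ctla4, against 13.0% and 10.0%.

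Over all 36 pairs of the 9 genes, the pair was found more often together than apart in 25 in aged meninges and 27 in aged choroid plexus after thinning. This was counted over the T cells of the 3 classes. In the young libraries it was 9 and 4, where 8 pairs each had no value, because no cell held Havcr2 after thinning. Without thinning it was 32 and 32 in the aged and 25 and 20 in the young libraries. After thinning, within aged CD4 T cells it was 14 in meninges and 21 in choroid plexus, with 14 and 7 the other way. Within aged CD8 T cells 18 pairs went each way in both tissues. Within aged cells of neither class it was 23 and 16, with 13 and 12 the other way. The count over the classes together can therefore include differences between the classes. The 36 pairs share cells and genes and are given as a count.

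**Figure D5:**
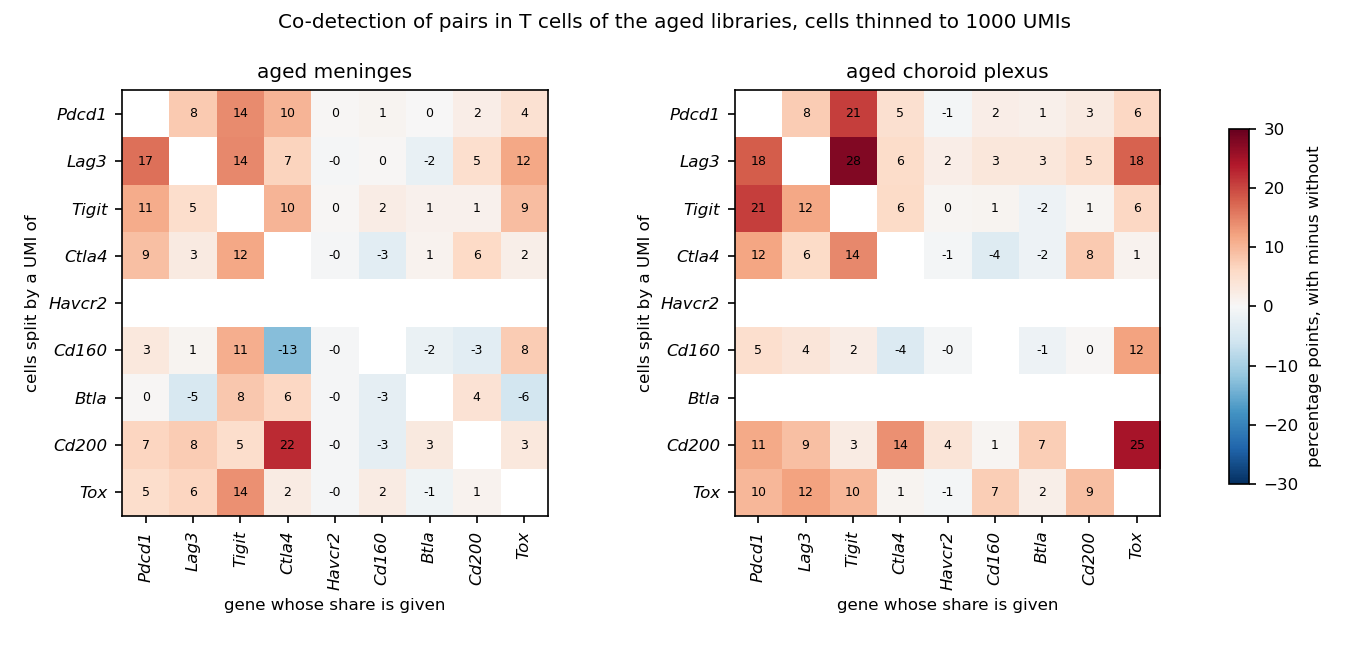
Difference in percentage points between the share of T cells with a gene (columns) among cells with and among cells without another gene (rows), after thinning, in aged meninges and aged choroid plexus. Rows with fewer than 20 cells are blank. The row of Lag3 is raised for Pdcd1, Tigit and Tox in both tissues, for example 37.2% against 9.43% for Tigit in choroid plexus, and Ctla4 is low in cells with Cd160.

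T cells with a Pdcd1 UMI in the aged libraries were then compared with those without over all genes. Lag3 stood at 115 against 35.2 CPM in meninges and 91.5 against 28.7 in choroid plexus, and Tigit at 273 against 110 and 233 against 74.0 CPM. Ctla4 stood at 224 against 124 and 98.3 against 26.7 CPM, and Cd200 at 78.0 against 22.9 and 46.9 against 20.1. Cd160 differed less, at 38.4 against 22.9 and 59.5 against 35.6 CPM, and Btla hardly, at 19.8 against 17.6 and 22.9 against 20.9. Havcr2 was also higher but had at most 11 UMIs on a side. Tox stood at 147 against 80.9 and 133 against 49.2 CPM. Outside the members, 25 of 8486 genes had a log2 ratio of at least 1 in cells with Pdcd1 over cells without, 10 CPM added, in both tissues. In meninges and choroid plexus alone 0.634% and 0.908% of the genes counted reached that ratio. The 8 leading ones included Ccl1, a ligand of CCR8 (59.5 against 1.06 CPM in meninges and 131 against 0.775 in choroid plexus), Spp1, osteopontin (104 against 6.33 and 207 against 13.9), and Penk, the precursor of the enkephalins (156 against 20.8 and 378 against 36.4). Ccl4 stood at 1862 against 190 CPM in meninges and 229 against 40.7 in choroid plexus, Ccl3 at 204 against 24.6 and 45.7 against 3.49. The other leading genes were Il1r2, the decoy receptor for interleukin 1, Sostdc1 and Rgs16. The study reports no expression of Spp1 in its T cells, whereas UMIs of it were counted here. An MHC class II UMI was found in 4.63% of aged meningeal cells with Pdcd1 against 2.37% without. In choroid plexus it was 3.52% against 1.32%, and the intervals overlapped in both tissues. Macrophage markers were seen in 38.5% and 12.5% of the 13 and 8 cells with both. The part of doublets and of free RNA in these companions was not tested.

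The cells with Cd160 differed in other genes. Xcl1, a chemokine of CD8 T and natural killer cells, measured 760 against 152 CPM in meninges and 454 against 165 in choroid plexus, and Cd7 194 against 73.7 and 347 against 117. Natural killer markers were seen in 16 of 74 and 22 of 110 of them, against 4.6% and 6.41% of the cells without Cd160. In all, 8 of 8486 genes reached a log2 ratio of 1 in both tissues, beside 1.08% of the genes in meninges and 0.488% in choroid plexus. The others were Cd8a and Cd8b1, which define the class, and Samd3, Cd38, Cdh1 and Pvrig.

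The 8 leading genes of the cells with Ctla4 included 4 of antigen presentation by MHC class II, and Lyz2, Penk, Cd83 and Cd81. Cd74, the invariant chain, measured 464 against 69.3 CPM in meninges and 667 against 28.8 in choroid plexus, and H2-Aa 144 against 7.22 and 129 against 0.320 CPM. Of the 48 genes that reached a log2 ratio of 1 in both tissues, beside 1.52% of genes in meninges and 2.21% in choroid plexus, those 8 had the largest sums of the log2 ratios of both tissues. An MHC class II UMI was found in 7.14% (4.48 to 10.7) of cells with Ctla4 against 1.66% without in aged meninges and in 8.89% (3.92 to 16.8) against 1.13% in aged choroid plexus. Lyz2, a gene of macrophages, was at 129 against 0.639 CPM in choroid plexus, macrophage markers were seen in 2.72% and 4.44% of the cells with Ctla4 against 1.94% and 0.824% of those without, and dendritic-cell markers in 0.340% and 1.11% against 0.0923% and 1.34%. Of the MHC class II cells with Ctla4, 8 of 21 and 4 of 8 had a UMI of Foxp3. They were deeper than the other cells with Ctla4, with a median of 3464 against 2190 UMIs in meninges and 4163.5 against 2746.5 in choroid plexus, and a B-cell marker was seen in 52.4% and 100% of them against 40.7% and 43.9%. The part of doublets and of free RNA in this was not tested.

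The genes around the members were measured from lists. Of 14 other inhibitory receptor genes, among them Klrg1, Entpd1 and Lilrb4a, 2 of 8 counted were higher with age in meningeal and 0 of 3 in choroid plexus CD4 T cells, 2 of 9 and 2 of 10 in CD8 T cells, and 1 of 10 and 1 of 7 in cells of neither class. No single gene of them passed in both tissues of a class. Their median log2 ratio was 0.18, 0.08, 0.44, 0.29, 0.32 and 0.37 in that order, beside the medians of all genes given above.

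Ligands and partners listed as ones that T cells can make were higher in 4 of 7, 3 of 6, 2 of 7, 2 of 7, 2 of 11 and 3 of 6 counted, with medians of 1.24, 0.92, 0.75, 0.63, 0.37 and 0.75. Pdcd1lg2, which encodes the ligand PD-L2, passed in both tissues in cells of neither class, from 8.63 to 43.9 CPM in meninges and from 9.92 to 46.1 CPM in choroid plexus. Lgals3, whose product galectin-3 binds LAG-3, went from 14.2 to 85.1 and from 34.7 to 79.5 CPM in CD8 T cells. H2-Aa, also on this list, had no UMI in young CD4 T cells and stood at 132 and 54.0 CPM in the aged ones. Only 15 of 362 aged meningeal and 5 of 230 aged choroid plexus CD4 T cells held a UMI of any MHC class II gene. Whether these T cells made H2-Aa themselves, and the part of doublets and of free RNA in it, was not tested. Cd200r1, the receptor for CD200, stood at 15.8 against 56.3 and 10.1 against 40.2 CPM in CD4 T cells.

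Co-stimulatory receptors were higher in 2 of 11, 4 of 11, 2 of 11, 2 of 11, 2 of 12 and 4 of 11 counted, with medians of 0.37, 0.31, 0.38, 0.24, 0.36 and 0.26, and Slamf6 was lower in meningeal CD8 T cells. Tnfrsf4, which encodes OX40, was the one that passed in all 6. It went from 109 to 369 CPM in meningeal and from 22.1 to 392 CPM in choroid plexus CD4 T cells, and from 3.78 to 103 and from 1.58 to 77.2 CPM in CD8 T cells. Icos went from 114 to 240 and from 72.5 to 180 CPM in CD4 T cells.

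Transcription factors of dysfunction or memory were higher in 5 of 14, 7 of 10, 8 of 15, 5 of 13, 8 of 16 and 6 of 12 counted, with medians of 0.55, 1.21, 1.01, 0.74, 0.97 and 0.85. Maf, Ikzf2 and Bhlhe40 passed in all 6 comparisons. In CD4 T cells Ikzf2, which encodes Helios, went from 35.0 to 282 CPM in meninges and from 44.3 to 224 CPM in choroid plexus, and Maf from 50.8 to 264 and from 36.2 to 222 CPM. Tcf7, the factor of naive and stem-like T cells, was lower in 4 of the 6 comparisons, in both tissues for CD4 and in meninges for CD8 and neither T cells. Regulatory T-cell genes were higher in 5 of 7, 7 of 7, 2 of 4, 6 of 7, 6 of 8 and 7 of 8 counted, with medians of 1.48, 1.79, 0.95, 1.32, 1.18 and 1.89.

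The phosphatases and adaptors through which the receptors act moved little. Of 18 genes, all counted in each of the 6 comparisons, 0, 2, 1, 0, 1 and 1 were higher, and the medians were 0.10, 0.31, 0.18, 0.28, 0.07 and 0.13, with Ptpn11, which encodes SHP-2, higher in choroid plexus CD4 and neither T cells. Dgka, a diacylglycerol kinase that blunts T-cell receptor signals, was lower in 5 of the 6, from 290 to 138 CPM in meningeal and from 316 to 129 CPM in choroid plexus CD4 T cells. Follicular helper genes were higher in 1 of 5, 1 of 4, 0 of 4, 0 of 4, 0 of 5 and 1 of 4 counted, each time Icos, with medians of 0.29, 0.36, 0.08, 0.32, 0.33 and 0.35.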

How the data were processed

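The values were raw UMI counts per gene and cell, deposited by the authors as 1 filtered matrix per library without normalization. The file headers name Cell Ranger 3.1.0 and the submitters' processing notes Cell Ranger 5.1.0, STAR and mm10, and the annotation used for counting is not given in the sources used here. Cells with 200 to 7000 genes and at most 5% mitochondrial UMIs were kept, the limits of the study, which left 1035, 631, 1436 and 1106 of 1111, 718, 1695 and 1277 barcodes (meninges then choroid plexus, the young before the aged). Scrublet in scanpy 1.11.5 then removed 16, 22, 0 and 5 cells. A share of 0 in aged meninges is too low for the caller to have worked there, so doublets can remain. Pairs of genes in 1 cell, and members per cell, can therefore include doublets.

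UMIs were summed per class and library and scaled to CPM of all genes. Intervals were exact Poisson for levels, Clopper-Pearson for shares and conditional binomial for ratios, all at 95% and taken over UMIs or cells (scipy 1.17.1). A gene counted as higher or lower with at least 20 UMIs over both groups and an absolute log2 ratio of at least 1 after adding 10 CPM. This adding understates the change of low genes. A count of 0 was taken to allow up to 3 counts. Thinning drew 1000 UMIs per cell without replacement, and 6 to 38 shallower T cells per library were left out of thinned shares. The calls were tested on simulated Poisson counts with known fold changes. That simulation modelled no variation between mice, no free RNA and no doublets. Naive-like T cells had a Ccr7 UMI and none of S100a4, Cxcr3, Cxcr6, Ccl5, Nkg7 and Foxp3. Cells with a gamma-delta constant gene had a UMI of Trdc, Tcrg-C1, Tcrg-C2 or Tcrg-C4. Coordinates come from GENCODE vM21 (GRCm38) and promoters from RefSeq.

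The 9 genes, the 7 gene lists and the rules were chosen with earlier results of these data known. Named besides the members were, of each list, up to 3 genes per class past the rule in both tissues, the 8 leading companions of Pdcd1, Ctla4 and Cd160 and the 3 genes most like each member. Klrg1, Entpd1, Lilrb4a, Slamf6, Tcf7 and Ptpn11 were named after their values were seen. The alternatives varied the mitochondrial limit, the doublet removal, the gate, the added CPM, the depth of thinning, the scaling and the minimum of UMIs.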

Additional observations from a re-analysis of the deposited data

Results flagged for a closer look

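T cells in which Cd4 and Cd8a or Cd8b1 were detected at once, 18 in young meninges, 16 in young choroid plexus, 30 in aged meninges and 33 in aged choroid plexus, entered no comparison of classes. Tigit measured 175 CPM in those of aged meninges and 227 CPM in those of aged choroid plexus, from 25 and 45 UMIs, against 0 and 10.7 CPM in the young ones. Ctla4 measured 80.8 CPM in those of aged choroid plexus, from 16 UMIs, and had no UMI in young choroid plexus. These levels stood out because they lay above those of the same cells in the young libraries. The cells can be doublets of a CD4 and a CD8 T cell, and this was not tested.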

How the results depend on the processing

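No paired analysis was possible because each group had 1 library, and for the same reason no library could be left out. No log2 ratio of a member changed its direction while called. Of 540 values under other settings of the steps named above 505 stayed on their side of the rule, 14 passed it newly and 21 no longer passed, and of 270 under those chosen after seeing the data it was 257, 3 and 10. With 50 CPM added, 0 members were higher with age in choroid plexus CD8, 2 in meningeal CD8 and 2 in choroid plexus neither T cells, where 0.219% to 1.30% of all genes counted were higher. With 1 CPM added 6.06% to 9.61% of all genes were higher, and with each cell thinned before summing 5.03% to 8.77%, with 3 members in meningeal CD8 T cells. Among the settings added later, 3 members were higher in meningeal neither T cells without naive-like cells, beside 2.16% of all genes. Without cells with a B-cell marker 0 were higher in choroid plexus CD8 and 2 in choroid plexus neither T cells, beside 2.97% to 6.58% of all genes over the comparisons of age. The share of T cells with at least 2 members was 8.90%, 7.30%, 32.4% and 27.8% without thinning and 3.45%, 2.82%, 20.9% and 14.3% at 1500 UMIs (meninges then choroid plexus, the young before the aged), and 3.15% in young meninges without naive-like cells. Without thinning, Pdcd1 was found in 46.3% and 45.8% of aged meningeal and choroid plexus cells with Lag3 and in 35.1% and 42.3% of those with Tigit, and Lag3 in 21.1% of aged meningeal cells with Tigit. At 1500 UMIs Pdcd1 was found in 41.4% of aged meningeal cells with Lag3 and 29.9% of those with Tigit. Without cells with a B-cell marker Pdcd1 was found in 11.1% of choroid plexus cells with Lag3, against 8.41% of the others, so that this pair no longer stood apart. The cause was not tested in any of these cases. Thinned shares fall with the depth drawn, and genes under 20 UMIs, Havcr2 above all, could not be compared by the rule of size.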
